A study of Mus musculus and Homo sapiens with 12 samples.

Results

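VL30 elements are mouse endogenous retroviruses of the ERV1 family. The elements described here were all rows of the mouse repeat table that were assigned to ERV1 and whose subfamily name began with MMVL30 or RLTR6. There were 2303 such elements among 55909 ERV1 elements and 3158171 repeat elements in all. They comprised 376 pieces of MMVL30-int and 943 of RLTR6-int, which are internal sequences, and the long terminal repeats (LTRs) RLTR6B_Mm (646 elements), RLTR6_Mm (237) and RLTR6C_Mm (101). The choice used names alone and no count.

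The data were estimated counts over these elements in chromatin-associated RNA (caRNA) of mouse embryonic stem (mES) cells after precipitation with an antibody against 5-methylcytosine (m5C). Libraries of wild-type (WT) cells and of Tet2-/- cells, called knockout (KO) here, were compared, with 3 replicates per genotype. Both lines were grown with serum, LIF, CHIR99021 and PD0325901 and had been passaged off feeder cells. Each genotype was a single received line. The study calls its genome-wide replicates biological without saying whether they were separate cultures, so p-values measure the spread between these libraries, within 1 line per genotype. The table holds repeats, so Tet2 itself and markers of the cell type were not checked here.

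TET2 is a dioxygenase that oxidises 5-methylcytosine in DNA and RNA. VL30 proviruses resemble murine leukaemia viruses in layout but carry no working viral genes, and their RNA is packaged by leukaemia viruses that replicate in the same cell. The LTR holds the promoter at the 5′ end of a provirus and the polyadenylation signal at its 3′ end. Reverse transcription starts at the primer binding site, just inside the 5′ LTR, where a cellular tRNA anneals and gives each lineage of retroviruses a signature.

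Joining members of the same strand that lay within 50 bp of each other gave 1469 assembled loci. Of these, 250 held MMVL30-int without RLTR6-int and are called VL30 loci below. A further 71 held both internal names and are called hybrid loci, 868 held RLTR6-int without MMVL30-int and 280 were LTRs alone. In 46 of the 71 RLTR6-int pieces of hybrid loci the match covered consensus positions 1 to 829, and the MMVL30-int piece of a hybrid began at consensus position 280, 325 or 391 in 49 of 73 cases. Most hybrids thus paired the start of RLTR6-int with the rest of MMVL30-int. An LTR lay at both ends in 39 VL30, 46 hybrid and 236 RLTR6-int loci. The LTR pairs that could be aligned had a median identity of 99.7% in VL30, 99.9% in hybrid and 99.1% in RLTR6-int loci.

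The primer binding site differed between these types. The stretches below are from mm10 in the sense of the provirus, and each is 70 bases that span the annotated 3′ edge of the 5′ LTR. They are shown because they carry the site: capitals mark TGGTGCATT, the start of a site that pairs with tRNA-Gly, or its nearest match, or TGGGGGCTC, the start of a site that pairs with tRNA-Pro. The first 6 are from VL30 and hybrid loci among the 10 with the highest counts, and the last 3 are a VL30 locus with RLTR6C_Mm LTRs and a pair of RLTR6-int loci.
VL30 near Dhx40, chr11:86815837-86815906, minus strand: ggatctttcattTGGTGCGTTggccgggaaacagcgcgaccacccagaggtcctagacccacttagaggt
VL30 near Gstp3, chr19:4065776-4065845, minus strand: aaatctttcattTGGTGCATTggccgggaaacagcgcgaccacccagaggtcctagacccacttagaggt
VL30 near H2-Q10, chr17:35478734-35478803, plus strand: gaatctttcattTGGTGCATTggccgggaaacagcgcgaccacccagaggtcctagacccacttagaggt
Hybrid in Sntg1, chr1:9235659-9235728, plus strand: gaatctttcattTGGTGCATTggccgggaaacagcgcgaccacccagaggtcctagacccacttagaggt
VL30 near Fgfr4, chr13:55184995-55185064, plus strand: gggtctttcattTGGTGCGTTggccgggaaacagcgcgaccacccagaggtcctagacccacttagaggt
Hybrid near Cd2ap, chr17:42890498-42890567, plus strand: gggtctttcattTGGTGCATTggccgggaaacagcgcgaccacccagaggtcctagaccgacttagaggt
VL30 with RLTR6C_Mm LTRs, chr17:19891192-19891261, plus strand: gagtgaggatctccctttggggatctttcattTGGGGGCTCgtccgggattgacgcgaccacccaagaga
RLTR6-int, chr5:143773802-143773871, plus strand: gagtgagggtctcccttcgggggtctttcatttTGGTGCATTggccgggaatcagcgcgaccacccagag
RLTR6-int, chr3:96372264-96372333, minus strand: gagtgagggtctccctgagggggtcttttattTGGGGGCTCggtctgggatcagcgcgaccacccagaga

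The loci near Dhx40 and Fgfr4 carried the change A7G, with the base of TGGTGCATT first and positions counted from 1 at its 5′ end. Where both LTRs and the reference sequence were at hand, TGGTGCATT stood in this window in 37 of 44 hybrid loci and TGGGGGCTC in none. The form TGGTGCGTT stood in 6 hybrid loci. Among VL30 loci with a 5′ LTR named RLTR6_Mm, 15 of 21 held TGGTGCATT, 6 held TGGTGCGTT and none held TGGGGGCTC. Among those with RLTR6C_Mm, 14 of 15 held TGGGGGCTC and 1 held TGGTGCATT. Loci of RLTR6B_Mm and RLTR6-int were mixed, with TGGGGGCTC in 131 of 229 and TGGTGCATT in 78. The sites were read as letters in a fixed window, so no match says only that these letters were not there.

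Short promoter motifs were less common in these LTRs than in other ERV1 elements of like length, apart from polyadenylation signals. Those other elements were not limited to LTRs, so this is no comparison with other ERV1 LTRs. The last 300 bases of the 5′ LTR of the locus near Dhx40 are shown because this LTR flanks the internal sequence with the most counts, with the letters ATTAAA in capitals.
RLTR6_Mm near Dhx40, mm10 chr11:86815877-86816176, minus strand: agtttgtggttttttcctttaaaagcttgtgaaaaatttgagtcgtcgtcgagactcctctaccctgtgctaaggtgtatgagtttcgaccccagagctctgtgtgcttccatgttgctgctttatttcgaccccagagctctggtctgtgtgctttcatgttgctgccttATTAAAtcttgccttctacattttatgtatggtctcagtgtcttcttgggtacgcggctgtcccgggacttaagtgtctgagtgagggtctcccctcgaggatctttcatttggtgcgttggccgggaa

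Searched on both strands, the TATA-box letters TATAAA stood in 4.29% of 210 RLTR6_Mm, 8.75% of 80 RLTR6C_Mm and 3.11% of 611 RLTR6B_Mm elements of 400 to 700 bp, against 48.3% of 20117 other ERV1 elements of these lengths. The AP-1 core TGANTCA stood in 0%, 0% and 0.327%, against 26.5%. CCAAT stood in 48.6%, 10.0% and 3.60%, against 75.3%. On the sense strand it stood in 8.57% of RLTR6_Mm elements, against 61.2% of other ERV1 elements, and on the antisense strand in 44.8%, against 38.3%. In 87 of the 94 RLTR6_Mm elements with the antisense letters, these lay only where TGGTGCATT was followed by GG, in the primer binding site described above, which the annotated LTR includes. The polyadenylation signal AATAAA was on the sense strand of 96.2% of RLTR6B_Mm elements but of 25.2% of RLTR6_Mm and 17.5% of RLTR6C_Mm elements, against 59.1% elsewhere. Its common variant ATTAAA, which was added to the search after the sequences were seen, was on the sense strand of 97.6% of RLTR6_Mm elements, 83.8% of RLTR6C_Mm and 98.4% of RLTR6B_Mm, against 27.0%. CpG dinucleotides were depleted less than in other ERV1 elements. Over pieces of at least 1000 bp, the ratio of observed to expected CpG had a median of 0.239 in MMVL30-int and 0.455 in RLTR6-int, against 0.152 in other ERV1 elements. In the 71 RLTR6-int pieces of hybrid loci, which are shorter (median 805 bp), the median ratio was 0.737. These are descriptions of reference sequence, and no base-level m5C was in the table.

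Members took a large part of the precipitated repeat RNA. Counts are given below as CPM, a count divided by each 1000000 of a library's counts over the classes DNA, LINE, LTR and SINE, whose totals were 2199886 to 3318565 in WT and 1532029 to 1999210 in KO libraries. The KO libraries were all shallower than the WT libraries. The members had between 179561 and 359386 counts per library, and 1451 of the 2303 members had counts in at least 1 library, 616 in all 6. The remaining 852 were at 0 throughout. Chromosome Y held 311 of the members and 6.56% of their counts.

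The share of library counts in members was 10.6%, 11.3% and 10.7% in WT and 13.1%, 11.7% and 12.6% in KO. All KO libraries lay above all WT libraries, with means of 10.9% ± 0.403 and 12.5% ± 0.691 (SD, n = 3 each) and a log2 ratio of 0.20. Permuting the genotype over its 20 possible assignments gave an exact two-sided p of 0.1, the smallest possible, and 0.1 after adjustment over 3 shares. MMVL30-int alone took 8.24% ± 0.243 in WT and 9.33% ± 0.580 in KO, and the RLTR6 subfamilies together 2.63% ± 0.162 and 3.14% ± 0.119, again without overlap between genotypes (exact p = 0.1 each). Set against the LTR class in place of all 4 classes, the log2 ratio of the member share was −0.0052 (exact p = 1).

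Other ERV1 elements were further apart between genotypes. The MMERGLN subfamilies, another group of ERV1 proviruses, took 0.411% ± 0.0552 of library counts in WT and 1.36% ± 0.177 in KO (log2 ratio 1.73). All remaining ERV1 elements took 6.55% ± 0.148 and 8.76% ± 0.657 (log2 ratio 0.42). Members were therefore a smaller part of ERV1 counts in KO, at 58.4%, 52.0% and 55.3%, than in WT, at 60.6%, 61.5% and 60.7%. This comparison was not tested.

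None of the 5 subfamilies was called between genotypes. Summed over MMVL30-int, the internal sequence of VL30, the libraries held 81050, 85192 and 80911 CPM in WT and 98172, 86878 and 94781 CPM in KO. The KO values were all above the WT values, but the share of all tested subfamilies without overlap was not computed. In the edgeR quasi-likelihood fit over 546 subfamilies, in which 11 (2.01%) were called at an adjusted p under 0.05, its log2 change was −0.0033 ± 0.0705 (SE), with an adjusted p of 0.982. The sign rested on the scaling. In this fit the median change of all subfamilies was 0.11, and with library totals in place of TMM factors the median was 0.29 and MMVL30-int was at 0.18 (adjusted p = 0.174). Under both scalings MMVL30-int lay below the median subfamily.

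RLTR6-int had 14184, 16455 and 14424 CPM in WT and 20128, 16250 and 18696 CPM in KO. The groups overlapped, and the log2 change was 0.11 ± 0.117 (SE, adjusted p = 0.692). RLTR6_Mm, the LTR that flanks most VL30 and hybrid proviruses, had 8410, 8297 and 8236 CPM in WT and 10811, 10723 and 9088 CPM in KO. Its groups did not overlap, again without a share over all subfamilies to set this against. Its log2 change was 0.12 ± 0.118 (SE, adjusted p = 0.667).
RLTR6C_Mm had 1720, 2358 and 2492 CPM in WT and 1379, 2755 and 2293 CPM in KO, with a log2 change of −0.22 ± 0.291 (adjusted p = 0.748). RLTR6B_Mm, whose LTRs flank RLTR6-int, had 783, 1008 and 453 CPM in WT and 356, 598 and 1058 CPM in KO, with a log2 change of −0.34 ± 0.453 (adjusted p = 0.752). Single libraries moved these values by over 1.5 times. RLTR6B_Mm was at −0.81 without KO replicate 3 and −0.047 without KO replicate 1, and RLTR6C_Mm at −0.44 without KO replicate 2 and −0.0011 without KO replicate 1. Without KO replicate 1, RLTR6-int was at 0.015 and RLTR6_Mm at 0.052. The highest values were 0.20 for RLTR6-int, without KO replicate 2, and 0.21 for RLTR6_Mm, without KO replicate 3. Both RLTR6C_Mm and RLTR6B_Mm overlapped widely between genotypes. Per kb of annotated sequence, MMVL30-int held 99.5 CPM, RLTR6_Mm 72.0, RLTR6C_Mm 51.3, RLTR6-int 6.79 and RLTR6B_Mm 2.02, as means over the 6 libraries.

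A few elements held most counts. In every library the same 2 members ranked first and second, both MMVL30-int pieces, and 7 members were among the 10 highest of all 6 libraries. The highest member alone held 14.3%, 14.9% and 14.0% of member counts in WT and 14.9%, 15.9% and 16.7% in KO. The groups met at 14.9% and overlapped, and the exact permutation p was 0.2 (0.8 adjusted over 4 measures). The 10 highest members held 45.9% ± 1.22 in WT and 46.5% ± 2.62 in KO (exact p = 0.8), and the 100 highest held 87.0% ± 0.0580 and 86.6% ± 0.950 (exact p = 0.6). The number of members that together held 50% of the counts was 14, 12 and 14 in WT and 16, 12 and 12 in KO (exact p = 1). At the other end, 688 of the 1451 members with counts had fewer than 10 in total over the 6 libraries.

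The order of the members was about as alike between genotypes as within them. Over the 616 members with counts in every library, Spearman's rho between libraries was 0.820 to 0.851 within WT, 0.830 to 0.854 within KO and 0.813 to 0.859 between them. These are correlations across elements of shared sequence, which are not independent.

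Elements of at least 3000 bp held 81.8% ± 0.949 of member counts in WT and 81.7% ± 1.49 in KO (exact p = 0.9). Elements inside annotated genes held 11.6% ± 0.383 and 11.4% ± 0.259 (exact p = 0.8). Of the assembled loci, 1145 of 1469 lay between genes and held 87.0% of member counts, 161 lay in introns on the opposite strand of the gene with 7.25%, and 63 lay in introns on the same strand with 2.20%.

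By type, VL30 loci held 60.3% of member counts, hybrid loci 29.9%, RLTR6-int loci 8.49% and LTRs alone 1.33%. As a part of library counts, VL30 loci had 6.21%, 6.71% and 6.48% in WT and 7.70%, 7.31% and 7.85% in KO, without overlap. Hybrid loci had 3.36%, 3.54% and 3.21% in WT and 3.97%, 3.29% and 3.42% in KO, with overlap. RLTR6-int loci had 0.902%, 0.905% and 0.847% in WT and 1.25%, 0.937% and 1.17% in KO, without overlap. Of the difference in summed member CPM between the genotype means, VL30 loci accounted for 71.8%, RLTR6-int loci for 14.8%, hybrid loci for 11.8% and LTRs alone for 1.59%. The 10 assembled loci with the highest counts accounted for 58.2% of this difference, and they held 52.4% of member counts.

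The locus with the highest counts was a VL30 provirus at chr11:86811742-86816395 on the minus strand, 3996 bp from Dhx40, which encodes a putative RNA helicase. It had 18057, 20429 and 18360 CPM in WT and 21457, 22757 and 24494 CPM in KO, 17.9% of all member counts. Every KO value was above every WT value. The table names its LTRs RLTR6_Mm and RLTR6C_Mm, yet they were identical over 499 aligned bases. Its MMVL30-int piece, the highest member, had 15144, 16913 and 14958 CPM in WT and 19448, 18672 and 21079 CPM in KO, and edgeR put its log2 change at 0.60 ± 0.137 (SE, adjusted p = 0.103), or 0.35 with library totals (adjusted p = 0.169).

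The second was a VL30 provirus at chr19:4061378-4066369 on the minus strand, 1809 bp from Gstp3, a glutathione S-transferase gene. It had 12804, 12928 and 13297 CPM in WT and 16274, 14218 and 15622 CPM in KO, again without overlap. Its MMVL30-int piece had a log2 change of 0.49 ± 0.123 (SE, adjusted p = 0.108), or 0.24 with library totals (adjusted p = 0.268). These 2 loci together held 29.98% of member counts, and 24.7% and 14.8% of the difference between genotypes.

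The third, at chr18:89835529-89840570 and 66001 bp from Dok6, had 5880, 5605 and 7067 CPM in WT and 6275, 7290 and 7471 CPM in KO. The groups overlapped, and its MMVL30-int piece was at 0.44 ± 0.173 (adjusted p = 0.214), or 0.18 with library totals. The locus near Fgfr4, a fibroblast growth factor receptor gene, had 2468, 3951 and 3124 CPM in WT and 4077, 4104 and 4292 CPM in KO. Its groups did not overlap, and its MMVL30-int piece was at 0.66 ± 0.220 (adjusted p = 0.162), or 0.41 with library totals. The locus near H2-Q10, a gene of the major histocompatibility complex, had 3935, 4525 and 3227 CPM in WT and 4969, 4514 and 3934 CPM in KO, with overlap. Its MMVL30-int piece was at 0.18 ± 0.211 (adjusted p = 0.657), and at −0.077 with library totals.

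The highest hybrid locus lay in an intron of Sntg1, a syntrophin gene, on the opposite strand, at chr1:9235030-9240388. It had 3487, 3951 and 3089 CPM in WT and 3865, 4079 and 4610 CPM in KO, with overlap. Its 858-bp RLTR6-int piece held nearly all of them, and its log2 change was 0.52 ± 0.170 (SE, adjusted p = 0.160), or 0.26 with library totals. The other members among the 10 highest were MMVL30-int near the pseudogene Gm13655 (0.19 ± 0.225), near Cd2ap (0.39 ± 0.262) and near Rhbdd2 (0.12 ± 0.173), and the RLTR6C_Mm of the Dhx40 locus (0.25 ± 0.279). Their adjusted p-values were 0.663, 0.434, 0.720 and 0.636, and all 4 overlapped between genotypes. With library totals the member near Cd2ap was at 0.14 and the other 3 turned, to −0.064 near Gm13655, −0.14 near Rhbdd2 and −0.011 for the LTR.

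**Figure D1:**
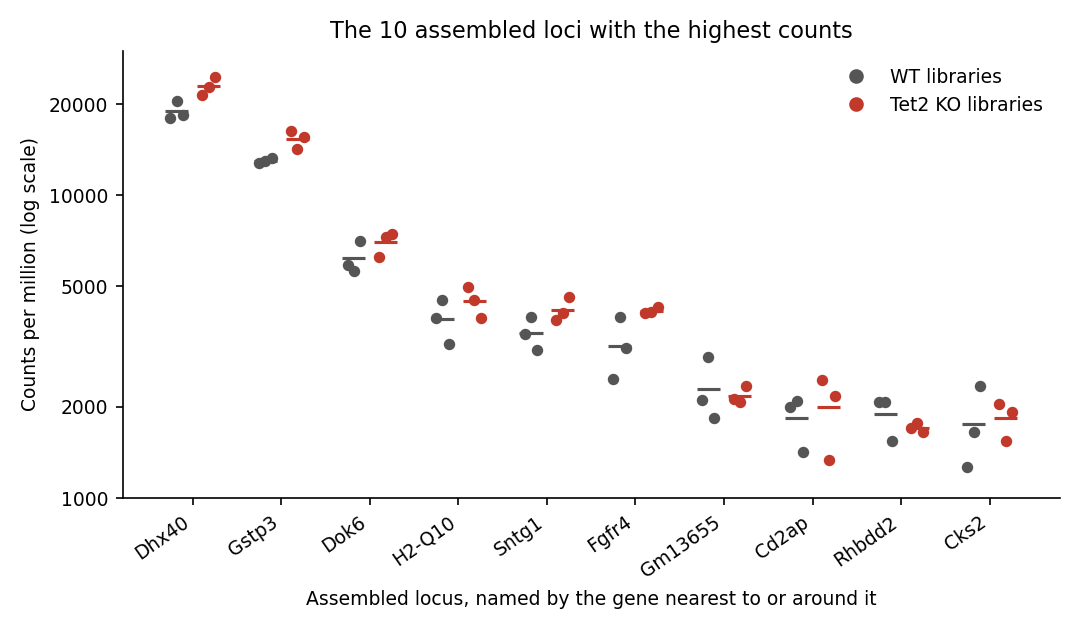
CPM (log axis) of the 10 assembled loci with the highest counts, ordered from left to right and named by the nearest gene or, for Sntg1, the gene around them. Points are libraries, grey for WT and red for Tet2 KO, with bars at the means of 3. The Dhx40, Gstp3 and Fgfr4 loci show no overlap, and the Gm13655 and Rhbdd2 loci have a lower mean in KO.

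Other repeats that lay wholly within 5000 bp of these loci had few counts. In 19 of 20 such flanks they had under 1 CPM in all, and the highest flank had 17.7 CPM. A flank without any such repeat also reads as 0, and sequence outside repeats was not covered. Whether counts extended past the loci was therefore not measured over whole flanks. The internal pieces of these loci were not copies of each other at 99% identity. The 9 internal pieces among the 10 highest members had no other internal member at 99% identity over 80% of their length. The piece near Rhbdd2 was just under this cut-off, with a best match at 98.993%, and that in Sntg1 had 98.135%. Sharing of reads between such pieces was not tested. Of the 707 internal members of at least 700 bp that were compared, 188 had such a copy, and counts cannot be assigned firmly to one of them. An example is a set of 4 MMVL30-int pieces of hybrid loci on chromosome Y, of 3186 to 3191 bp and with 5 such copies each. Their mean levels were 1332 to 1415 CPM, and their log2 changes 0.24 to 0.38 (adjusted p = 0.211 to 0.549).

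Within the 10 highest loci the internal sequence was denser than either LTR in 8, in CPM per kb as a mean over the 6 libraries. In the Dhx40 locus the 5′ LTR had 2533, MMVL30-int 4869 and the 3′ LTR 3826 CPM per kb. In the Gstp3 locus the values were 1454, 3122 and 2245. The 3′ LTR was denser than the 5′ LTR in 7 of the 10 loci. Counts on LTRs are uncertain, because the LTRs of a provirus are nearly identical.

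The hybrid in Sntg1 differed from the hybrids near Cd2ap and Rhbdd2. Its RLTR6-int piece had 3860 CPM per kb and its MMVL30-int piece 112. In the hybrids near Cd2ap and Rhbdd2 the order was the opposite, with 45.3 and 37.8 CPM per kb in RLTR6-int and 567 and 527 in MMVL30-int. Among lower hybrids, Sntg1 was not alone in having most counts in RLTR6-int. Near Oasl2 an RLTR6-int piece of 806 bp held 988 of the 1334 CPM of its locus. Near Gm37386 a piece of 914 bp held 558 of 998 CPM. The cause of these differences was not tested.

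Single loci were tested in 1 fit over 19030 repeat elements, of which 9 (0.0473%) were called, all higher in KO. No member was called among the 502 that passed the filter on low counts. An unadjusted p under 0.05 was reached by 88 members, 81 of them higher in KO, which is 17.5% against 21.02% of all elements tested. The median log2 change was 0.47 over these members and 0.034 over all elements, and 384 of the 502 members (76.5%) were above 0 against 51.4% of all elements. With library totals the medians were 0.22 and −0.21. Then 52 members reached an unadjusted p under 0.05, 41 higher and 11 lower in KO, which is 10.4% against 22.6% of all elements, and 328 members (65.3%) were above 0 against 42.7%. Under neither scaling was an unadjusted p under 0.05 split by direction over all elements. The splits of the members by direction therefore have no background here. TMM factors in the locus fit were 1.07 to 1.13 in WT and 0.888 to 0.959 in KO, which raised log2 changes. In the subfamily fit they were 0.898 to 0.971 in WT and 1.04 to 1.10 in KO, which lowered them. Changes of subfamilies and of loci are thus not on the same scale. The lowest adjusted p of a member in the locus fit with TMM was 0.0975. Members that passed are the more abundant ones, and these counts do not cover the other members.

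In CPM, all KO libraries lay above all WT libraries in 41 of the 502 members (8.17%) and below them in 15 (2.99%). Over all elements tested these shares were 11.6% and 19.7%. The member shares were below these background shares in both directions. MMVL30-int had 11 members above and 2 below among 110 tested, RLTR6-int 24 and 11 among 296, and RLTR6_Mm 5 and 2 among 79.

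The spread of changes, like the level, differed between types. Over assembled loci tested, log2 changes had a median of 0.50 and an SD of 0.493 in 62 VL30 loci, 0.37 and 0.344 in 48 hybrid loci, 0.50 and 1.11 in 248 RLTR6-int loci and 0.72 and 0.855 in 27 LTRs alone. The change was above 0 in 58, 43, 175 and 20 of them, where 51.4% of all elements tested were above 0 in the same kind of fit. The median levels of these loci were 280, 528, 32.4 and 36.3 CPM. Among loci with a mean of at least 1000 CPM, 22 of 23 were above 0 in this fit, between −0.054 and 0.70, with a median of 0.46 in 10 VL30 loci and 0.29 in 13 hybrids. By the ratio of mean CPM, which is scaled to library totals, 16 of the 23 were above 0, between −0.33 and 0.44. On that scale 47 VL30, 34 hybrid and 146 RLTR6-int loci and 18 LTRs alone were above 0. The SD of the changes over all types was 0.178 in these 23 loci, 0.473 in 72 loci between 100 and 1000 CPM, 1.10 in 259 loci between 10 and 100 CPM, which ranged from −2.62 to 3.98, and 0.682 in 31 loci under 10 CPM. No assembled locus was called.

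**Figure D2:**
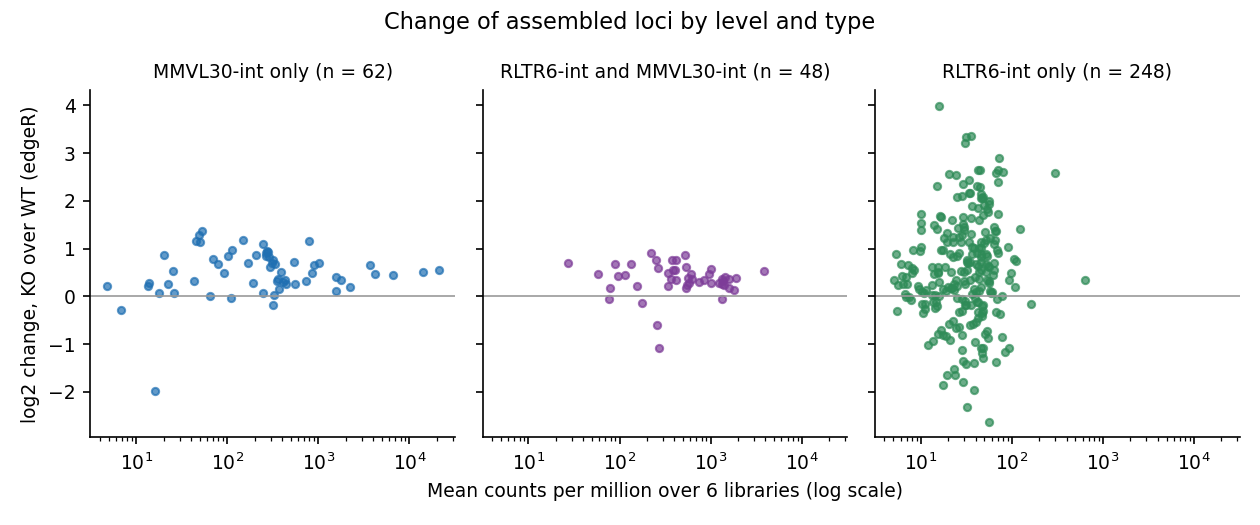
Log2 change, KO over WT, from edgeR against mean CPM (log axis) of the assembled loci tested, by type. Each point is 1 locus. With the TMM scaling of this fit 58 of 62 VL30 and 43 of 48 hybrid loci sit above 0, against 47 and 34 by the ratio of mean CPM, and the 248 RLTR6-int loci, which have lower counts, spread from −2.62 to 3.98.

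The members with the smallest p in each direction are given as not called. The smallest was an RLTR6-int element of 4108 bp at chr3:20633394-20637501, minus strand and 127186 bp from the long non-coding RNA gene Gm31466. It had 0.918, 1.09 and 1.88 CPM in WT and 11.8, 34.3 and 35.4 CPM in KO, with a log2 change of 3.99 ± 0.623 (SE, adjusted p = 0.0975), and its WT values came from at most 6.25 counts a library. It passed the filter on low counts through its KO libraries alone, so its direction gives no support for a change. The next was MMVL30-int at chr12:24081118-24085031 in an intron of 9030624G23Rik on the same strand. It had 596, 533 and 523 CPM in WT and 906, 1164 and 988 CPM in KO, with a log2 change of 1.16 ± 0.183 (adjusted p = 0.0975). The genotypes overlapped in neither, and the third was the Dhx40 member described above.

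In the other direction, the MMVL30-int piece of a hybrid at chr8:85137705-85140888, minus strand and 1779 bp from the pseudogene Gm45316, had 411, 238 and 462 CPM in WT and 131, 87.6 and 125 CPM in KO. Its log2 change was −1.42 ± 0.307 (SE, adjusted p = 0.101). The whole provirus had means of 394 and 153 CPM. A nearly complete RLTR6-int at chrX:40364810-40372383, minus strand, lay in an intron of Gm14643 on the opposite strand and had 29.2, 33.3 and 24.9 CPM in WT and 5.10, 6.22 and 6.46 CPM in KO (−1.86 ± 0.427, adjusted p = 0.103). Another at chr12:51310300-51318003, plus strand, had 42.4, 64.9 and 61.0 CPM in WT and 17.1, 3.93 and 5.44 CPM in KO (−2.32 ± 0.616, adjusted p = 0.113). All 3 were lower in every KO library.

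The DESeq2 Wald test called 29 of the 502 members, 24 higher (4.78%) and 5 lower (0.996%) in KO, where it called 7.92% and 3.42% of all elements tested. The member shares were below the background in both directions. These 29 held 1.84% of member counts, and none ranked above 30th by level. The chromosome 3 element described above and RLTR6-int at chr12:103932969-103935703 (1.27 to 3.42 CPM in WT) were among those called higher. Both passed the filter on low counts through their KO libraries alone. Among the 24 higher ones were 20 RLTR6-int and 3 MMVL30-int pieces and 1 RLTR6_Mm, and 11 of the 24 were RLTR6-int on chromosome X. These 11 were 4921 to 7667 bp long and had mean levels of 6.04 to 20.9 CPM in WT and 33.7 to 111 CPM in KO. In several of them WT replicate 1 was far above the other WT libraries. The copy at chrX:27761162-27768796 had 46.8, 7.75 and 8.08 CPM in WT and 54.6, 109 and 84.7 CPM in KO. This did not hold for all, as the element at chrX:89011835-89019501 had 9.72, 17.8 and 22.6 CPM in WT. In edgeR their log2 changes were 2.13 to 3.30, with adjusted p-values of 0.103 to 0.172. All 11 lay higher in every KO library, but 10 of them had a copy of at least 99% identity and so are not independent loci. Chromosome X held 61 of the 502 tested members and also 2 of the 5 called lower, both RLTR6-int. The share called over all repeat elements of chromosome X was not computed. Over all tested RLTR6-int members the median log2 change was 1.16 in 51 on chromosome X and 0.46 in 245 elsewhere, a difference that was seen in the data and was not tested.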

How the data were processed

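Chromatin-associated RNA of WT and Tet2-/- mES cells was precipitated with an m5C antibody and sequenced. The submitters' processing notes name Trimmomatic 0.39, HISAT2 2.1.0, Picard and mm10. The deposited values are estimated counts that the authors obtained per repeat element with featureCounts. Only 4.62% of the members' values above 0 were whole numbers (within 1e-06), and the options behind this are not given in the sources used here. All columns used were precipitated libraries, and no input or spike-in values were analysed here. Differences therefore mix RNA abundance with m5C enrichment and are relative to other repeats.

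Counts of 4 classes were rounded and fitted with edgeR 4.0.16 (quasi-likelihood, filterByExpr, TMM, prior count 2) over all subfamilies or loci, with Benjamini–Hochberg adjustment and a threshold of 0.05. SE is the absolute log2 change over the square root of F. Totals were 1532029 to 3318565 counts, and the biological coefficient of variation in the locus fit was 0.656. Shares were compared by exact permutation. DESeq2 1.42.0, other scalings and filters, and left-out libraries were alternatives. Models were tested on simulated data. Positions are mm10, 1-based, and genes are from GENCODE M21. Sequences were read from the reference genome of that build. The named members are the 5 subfamilies, the 10 elements with the highest mean CPM and, as none was called, the 3 of smallest p in each direction. The members, lists and alternatives were chosen with earlier results of these data known. Software was R 4.3.3, Python 3.11.15, SciPy 1.17.1, pysam 0.24.0, Biopython 1.88, BLAST 2.17.0 and matplotlib 3.10.9.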

Additional observations from a re-analysis of the deposited data

How the results depend on the processing

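The member, MMVL30 and RLTR6 shares were higher in KO under all alternatives run but the LTR-class denominator, where the log2 ratios of the member and MMVL30 shares turned to −0.0052 and −0.024. Leaving out 1 library kept them between 0.16 and 0.24 for all members. No member subfamily or locus was called under any edgeR alternative, and DESeq2's Wald test called 29 loci. Over all elements, locus calls numbered 9 as reported, 2158 by the Wald test, 1 with a minimum of 10 counts in total and 0 without any 1 library, and subfamily calls numbered 11 as reported, 56 by the Wald test and 5 to 7 without 1 library or with other scalings. Results near 0 changed sign. Without the highest member the log2 ratio for the 10 highest was −0.022 and for elements inside genes 0.0099, and from 4000 bp that for long elements was 0.085. Leaving out 1 library gave −0.0146 to 0.0626 for the 10 highest, −0.0154 to 0.000288 for the 100 highest, −0.0102 to 0.0141 for long elements, −0.0384 to 0.00946 for elements inside genes, −0.063 to 0.056 for MMVL30-int in edgeR and −0.0063 to 0.19 for the MMVL30-int near Rhbdd2. With library totals MMVL30-int was at 0.18, and the members near H2-Q10, Gm13655 and Rhbdd2 and the LTR near Dhx40 were at −0.077, −0.064, −0.14 and −0.011. Members near H2-Q10, Gm13655 and Cd2ap and the LTR near Dhx40 ranged over 0.029 to 0.35, 0.056 to 0.42, 0.22 to 0.58 and 0.080 to 0.49 without 1 library (lowest without WT replicate 3 or, for the LTR, KO replicate 2, and highest without WT replicate 2, WT replicate 2, KO replicate 2 and KO replicate 1). The cause was not tested.

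Replicate numbers did not pair the libraries. Deviations from the group means correlated at −0.094, −0.036 and −0.045 between same-numbered libraries. With the replicate block 0 of 5 member subfamilies and 0 of 502 member loci were called, 0 of 19030 loci and 0 of 546 subfamilies in all, and the member share (log2 ratio 0.20) had an exact p of 0.25 over 8 sign flips, the smallest they can give. Assembled loci, the removal of chromosome Y and the restriction of shares to loci with MMVL30-int were chosen after seeing the data, and none of them gave a call or turned a share. With 3 libraries per genotype and a coefficient of variation of 0.656, changes of single low loci could not be resolved, and near-identical copies cannot be told apart.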
